A study of Homo sapiens with 15 samples.

Results

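The 10 genes described here are POLQ and 9 other genes of the DNA damage response, namely BRCA1, BRCA2, ATM, ATR, PRKDC, FANCA, FANCD2, FANCM and TP53BP1. They were taken by their symbols from the gene table, in which each was present once among 37787 genes, and all 10 were among the 13868 genes with enough counts to be tested. RNA was sequenced from HGrC1, an immortalized human granulosa cell line that is not luteinized and carries normal FOXL2 alleles, at passage 14. Each of 5 conditions had 3 libraries with the letters A, B and C. The plasmids were empty (Vectors) or carried SMAD3 with wild-type FOXL2 (FOXL2WT) or SMAD3 with FOXL2C134W, the form of adult granulosa cell tumors, and each combination was also given together with FOXO1-3A, a constitutively active FOXO1 (FOXL2WT + FOXO1 and FOXL2C134W + FOXO1). SMAD3 was therefore co-transfected in all groups but Vectors, expression was transient, and RNA was collected 24 h after the end of a lipofection of 4 h, in medium free of serum. The labels do not say whether the letters stand for separate transfections, so p-values measure the spread between these samples, which may be technical.

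Double-strand breaks are dangerous lesions of the genome, and cells repair them by several routes. Homologous recombination copies the lost sequence from the sister chromatid and depends on BRCA1 and BRCA2, whereas classical end joining ligates the ends with the help of the kinase encoded by PRKDC. POLQ encodes DNA polymerase theta, which joins ends through short stretches of microhomology and becomes important where recombination is impaired. ATM and ATR are the kinases that signal breaks and stalled forks, TP53BP1 protects ends from resection, and the Fanconi anemia genes FANCA, FANCD2 and FANCM act on crosslinks between the strands.

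POLQ lies on chromosome 3 at 121431431 to 121545988 on the minus strand, BRCA2 on chromosome 13 at 32315086 to 32400268 on the plus strand and ATM on chromosome 11 at 108223044 to 108369102 on the plus strand (GENCODE 44, GRCh38). The 150 bases before the RefSeq start of these 3 genes are shown because POLQ, BRCA2 and ATM were among the genes that differed between the FOXL2 forms. They come from RefSeq on GRCh38.p14, at chr3:121545989-121546138 for POLQ (minus strand), chr13:32315358-32315507 for BRCA2 and chr11:108222917-108223066 for ATM (both plus strand), read 5′ to 3′ on the strand of the gene. RefSeq and GENCODE place the starts of BRCA2 and ATM differently, so the stretch of BRCA2 and the end of that of ATM lie inside the GENCODE bounds given above. Capitals mark any match to the 5 motifs described next.
POLQ: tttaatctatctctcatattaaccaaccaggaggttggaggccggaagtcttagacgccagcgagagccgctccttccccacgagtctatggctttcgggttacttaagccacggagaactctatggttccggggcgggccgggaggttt
BRCA2: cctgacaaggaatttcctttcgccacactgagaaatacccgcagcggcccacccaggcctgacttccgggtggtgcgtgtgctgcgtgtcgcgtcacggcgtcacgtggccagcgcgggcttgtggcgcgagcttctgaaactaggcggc
ATM: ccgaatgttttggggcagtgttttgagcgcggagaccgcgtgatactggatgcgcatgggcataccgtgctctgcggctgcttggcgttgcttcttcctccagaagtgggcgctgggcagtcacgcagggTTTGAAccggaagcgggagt

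Windows of 250 bases before to 50 bases after the start were searched on both strands for 5 motifs. An E2F motif was spelled GGCGGGAA, and the cell cycle homology element, or CHR, was spelled TTTGAA. The letters CCAAT stand for the box of that name. For forkhead factors the motif was TGTTTAC, and for SMAD proteins it was the box CAGAC. RefSeq windows were at hand for 9 of the 10 genes, with 11 windows in all. None of the 11 windows held the forkhead motif, which was present in 3.42% of all 35116 promoter windows. The E2F motif was found in POLQ and FANCD2, against 3.16% of all windows. POLQ carried it 14 bases after the start, and carried TTTGAA 4 bases after the start and, on the opposite strand, at -230, all outside the stretch printed above. ATM held TTTGAA at -20, the match in capitals, and TTTGAA was present in 15.2% of all windows. The CCAAT letters were found in ATM, BRCA1, FANCA, FANCM and TP53BP1 (34.6% of all windows) and the SMAD box in ATM, BRCA1, FANCA and TP53BP1 (45.3%). BRCA2 had none of the 5 motifs in its window. These matches are letters in a window and say nothing of binding.

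The transfected genes followed the labels. FOXL2 ranged from 8.28 to 9.54 CPM (counts relative to library size, after scaling of the libraries) in Vectors, from 554 to 566 in FOXL2WT and from 121 to 175 in FOXL2C134W. SMAD3 ranged from 2595 to 2889 CPM in FOXL2WT but from 812 to 885 in FOXL2C134W, so both plasmid mRNAs were lower with FOXL2C134W, and the part of these amounts in the differences below was not tested. FOXO1 mRNA was at 104 to 132 CPM in FOXL2WT + FOXO1 and at 39.1 to 47.2 in FOXL2C134W + FOXO1, against 11.6 to 13.8 in the conditions without its plasmid. SMAD3 was also lower where FOXO1 was added, at 957 to 976 CPM in FOXL2WT + FOXO1 and at 379 to 411 in FOXL2C134W + FOXO1. Totals ran from 14962245 to 25339094 estimated counts per library. Of 10 granulosa cell markers 7 passed the count filter. KRT8 and KRT18 were high, at 2497 to 2849 and 1668 to 1920 CPM, and FST was at 41.1 to 47.0. INHBA was at 6.54 to 9.14 CPM, NR5A1 at 3.83 to 6.40 and AMH at 0.74 to 1.94. FSHR, the follicle-stimulating hormone receptor, had 0 counts in every library, and INHA and CYP19A1, which encodes aromatase, had at most 4. Of 14 markers of other ovarian and blood cells 9 passed the filter. PTPRC of blood cells, DDX4 of germ cells and the steroidogenic genes CYP17A1 and LHCGR had at most 5 counts, and CDH1 at most 12. CD68 was at 88.7 to 117 CPM, DES at 30.5 to 44.2, ACTA2 at 19.5 to 31.2, ZP3 of oocytes at 5.76 to 9.06, EPCAM at 4.78 to 7.72 and the steroidogenic gene STAR at 1.38 to 3.84, and PECAM1, VWF and PDGFRA reached at most 2.31. The summed level of the 14 markers was 190 to 201 CPM in Vectors, 177 to 181 in FOXL2WT, 165 to 171 in FOXL2C134W, 173 to 182 in FOXL2WT + FOXO1 and 165 to 177 in FOXL2C134W + FOXO1, and its part in the differences below was not tested.

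All 10 repair genes were well expressed in every condition, from 272 counts for FANCA to 9210 for PRKDC in a single library. Per kilobase of transcript (the length weighted by the estimated reads), PRKDC, the catalytic subunit of DNA-dependent protein kinase, had the highest level with 22.5 CPM per kb in Vectors. TP53BP1 followed with 16.1 and FANCD2 with 14.4 CPM per kb. BRCA1 (8.35), ATR (7.52), FANCA (5.55) and FANCM (5.28) formed the middle of the range in Vectors. POLQ at 4.52 CPM per kb, ATM at 4.37 and BRCA2 at 3.56 were the lowest of the 10. The levels of POLQ across the 15 libraries lay between 3.44 and 5.25 CPM per kb.

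POLQ was at 39.5, 37.7 and 40.8 CPM in Vectors A, B and C and at 33.2, 31.8 and 33.9 in FOXL2WT. It was at 37.0, 41.9 and 45.7 CPM in FOXL2C134W. The 3 libraries of FOXL2WT thus lay below all libraries of Vectors and of FOXL2C134W, which overlapped each other. With FOXO1, POLQ was at 29.9, 41.1 and 38.0 CPM in FOXL2WT + FOXO1 and at 40.1, 36.6 and 40.7 in FOXL2C134W + FOXO1. The spread was widest in FOXL2WT + FOXO1, where library A held the lowest POLQ level of all 15.

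BRCA2, which homologous recombination requires, was at 42.5, 41.1 and 42.3 CPM in Vectors, at 33.8, 34.7 and 36.2 in FOXL2WT and at 35.5, 54.2 and 52.7 in FOXL2C134W. FOXL2C134W A lay within the range of FOXL2WT, and libraries B and C lay above every other library of the series. In FOXL2WT + FOXO1 BRCA2 was at 34.9, 42.5 and 39.6 CPM, and in FOXL2C134W + FOXO1 at 38.6, 42.6 and 47.8. BRCA1, the E3 ligase that acts before BRCA2, was at 56.4, 51.7 and 50.3 CPM in Vectors, at 44.7, 43.8 and 48.4 in FOXL2WT and at 45.5, 57.5 and 63.3 in FOXL2C134W. FOXL2C134W A was again the library that overlapped FOXL2WT.

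Of the kinases, ATM was at 52.7, 53.2 and 52.1 CPM in Vectors, at 46.4, 52.8 and 46.9 in FOXL2WT and at 50.2, 63.6 and 60.1 in FOXL2C134W. PRKDC was at 296, 286 and 307 CPM in Vectors, at 266, 303 and 265 in FOXL2WT and at 294, 385 and 340 in FOXL2C134W. For both kinases FOXL2WT B and FOXL2C134W A were the overlapping libraries. ATR was at 59.9 to 62.4 CPM in FOXL2WT and at 62.8 to 73.1 in FOXL2C134W, without overlap but with a gap of less than 1 CPM.

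TP53BP1, of the remaining members, ranged from 101 to 103 CPM in FOXL2WT and from 104 to 125 in FOXL2C134W. FANCD2, which is monoubiquitinated at crosslinks, ranged from 67.7 to 72.9 and from 72.8 to 78.0 CPM in the same conditions. FANCM, the translocase that recognizes blocked forks, ranged from 29.7 to 30.3 and from 27.9 to 33.3 CPM, and FANCA, a subunit of the core complex, from 17.0 to 20.1 and from 19.3 to 20.8. FANCA overlaps ZNF276 and TP53BP1 overlaps TUBGCP4 on the opposite strand, and the strand setting of the counting is not given in the sources used here, so their counts may share reads. Some libraries were low for most of the members. FOXL2C134W A was the lowest of its group for 10 of the 10 genes, and FOXL2WT + FOXO1 A was the lowest of its group for 9 and the lowest of all 15 libraries for 6. The share of all genes for which these libraries were lowest is not given here, so these counts have no baseline.

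**Figure D1:**
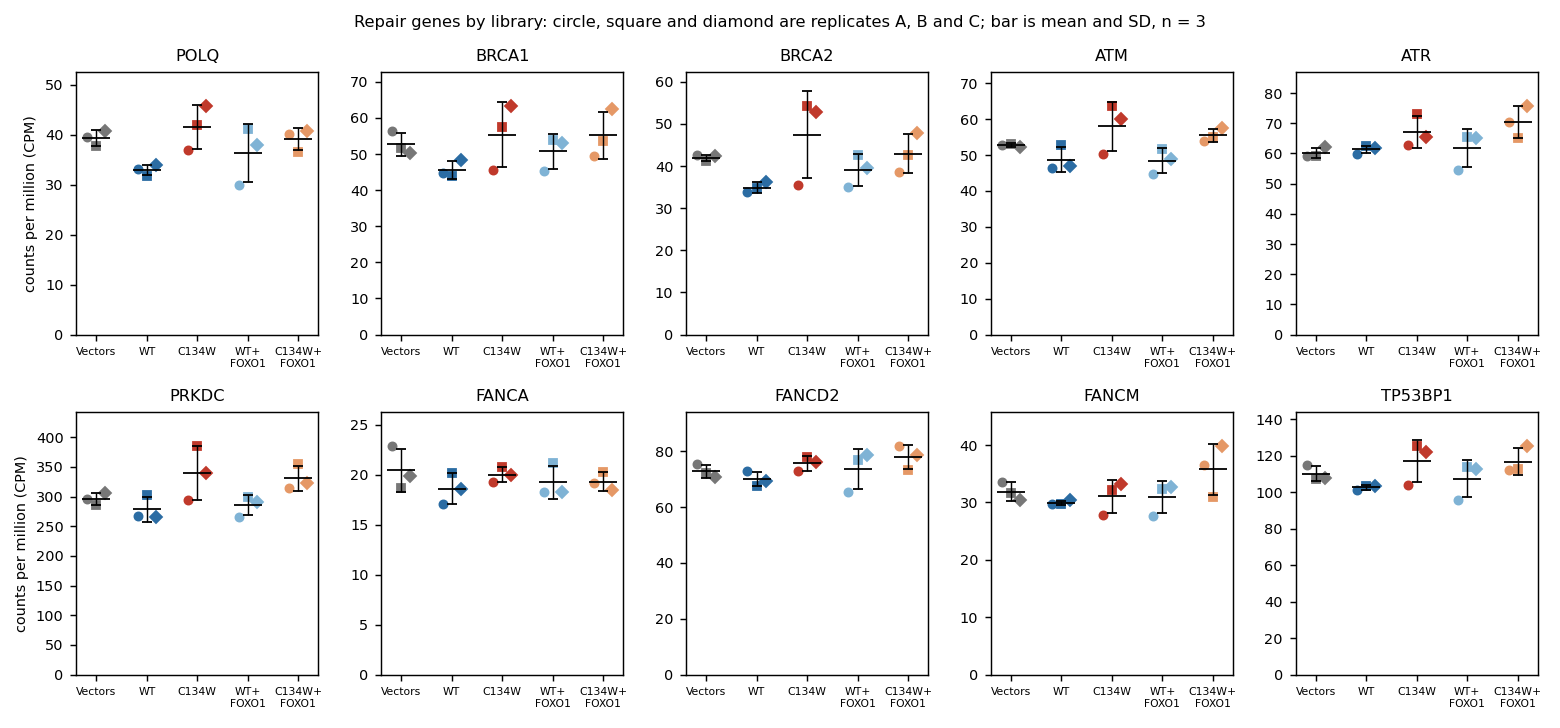
Levels of the 10 repair genes in CPM (vertical axes from 0) in each library of the 5 conditions, WT and C134W standing for the FOXL2 form; symbols mark replicates A, B and C, and bars give the mean and SD of 3 libraries. In FOXL2C134W the circle, replicate A, lies below the square and the diamond in all 10 panels.

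The order of the mean levels was similar among members. FOXL2WT was the lowest condition for 8 of the 10 genes, the exceptions being ATR (Vectors lowest) and ATM (FOXL2WT + FOXO1 lowest). FOXL2C134W was the highest for 6 genes, FOXL2C134W + FOXO1 for 3 and Vectors for FANCA. Neighbouring conditions in these orders were not called different. Neighbours were picked by the same mean levels, which makes their differences small, so the lack of calls says little about the order. Of the 40 pairs of neighbours edgeR called 0, DESeq2 called 0, and 0 had an unadjusted p under 0.05. Over the 5 conditions together, a difference was called for PRKDC (adjusted p = 0.031), and for 16.4% of all genes tested. ATM had an adjusted p of 0.056, POLQ of 0.091 and BRCA2 of 0.092.

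The main comparison of the study sets the tumor form against the wild type. POLQ, BRCA2, ATM and PRKDC were higher in FOXL2C134W than in FOXL2WT, and the other 6 genes did not pass the test. The call rate for higher genes in this comparison was 7.13% over all tested genes, against 4 of the 10 members. The members were chosen with earlier results of these data known, so this contrast is not independent evidence. BRCA2 rose 1.36-fold, by 0.44 ± 0.12 on the log2 scale (SE, adjusted p = 0.022). POLQ rose 1.26-fold, by 0.33 ± 0.09 (adjusted p = 0.025). PRKDC rose 1.22-fold, by 0.29 ± 0.08 (adjusted p = 0.020), and ATM 1.19-fold, by 0.25 ± 0.08 (adjusted p = 0.035). POLQ is among the genes that the study itself named from these libraries, so its call is not independent evidence. The study named it as shared with published data from patient tumors and as a FOXL2 target in earlier binding data. Those outside data were not examined here. Of the 4 called genes, only POLQ had no overlap between the replicates of both conditions. BRCA2, ATM and PRKDC were not called in DESeq2 with transcript length offsets, the setting closest to the study's own processing (closing section).

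BRCA1 differed by a log2 fold change of 0.27 (95% interval 0.06 to 0.49, adjusted p = 0.098) and TP53BP1 by 0.19 (0.04 to 0.34, adjusted p = 0.089). For ATR the log2 fold change was 0.13 (-0.02 to 0.28), for FANCD2 0.11 (-0.02 to 0.24), for FANCA 0.11 (-0.07 to 0.29) and for FANCM 0.05 (-0.13 to 0.24). The fold changes of all 10 members were above 0, with a median of 0.22 on the log2 scale, whereas the median over all genes was -0.012. Replicates lay apart, higher in FOXL2C134W, for 3 of the 10 genes (POLQ, ATR and TP53BP1), and for 14.8% of all genes.

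The number of calls changed with individual libraries, among the members and over all genes. Without FOXL2C134W B, FOXL2C134W C or FOXL2WT A, 0 of the 10 genes were called by edgeR, without FOXL2WT C 1 and without FOXL2WT B 2, while 6 were called without FOXL2C134W A. The share of all genes called higher was 7.13% with all libraries. It was 4.31% without FOXL2C134W B, 4.25% without FOXL2C134W C and 5.29% without FOXL2WT A. Without FOXL2WT C it was 5.56%, without FOXL2WT B 4.23% and without FOXL2C134W A 9.78%. Whichever of the 15 libraries was left out, the 10 fold changes stayed above 0, and their median ranged from 0.16 to 0.32.

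**Figure D2:**
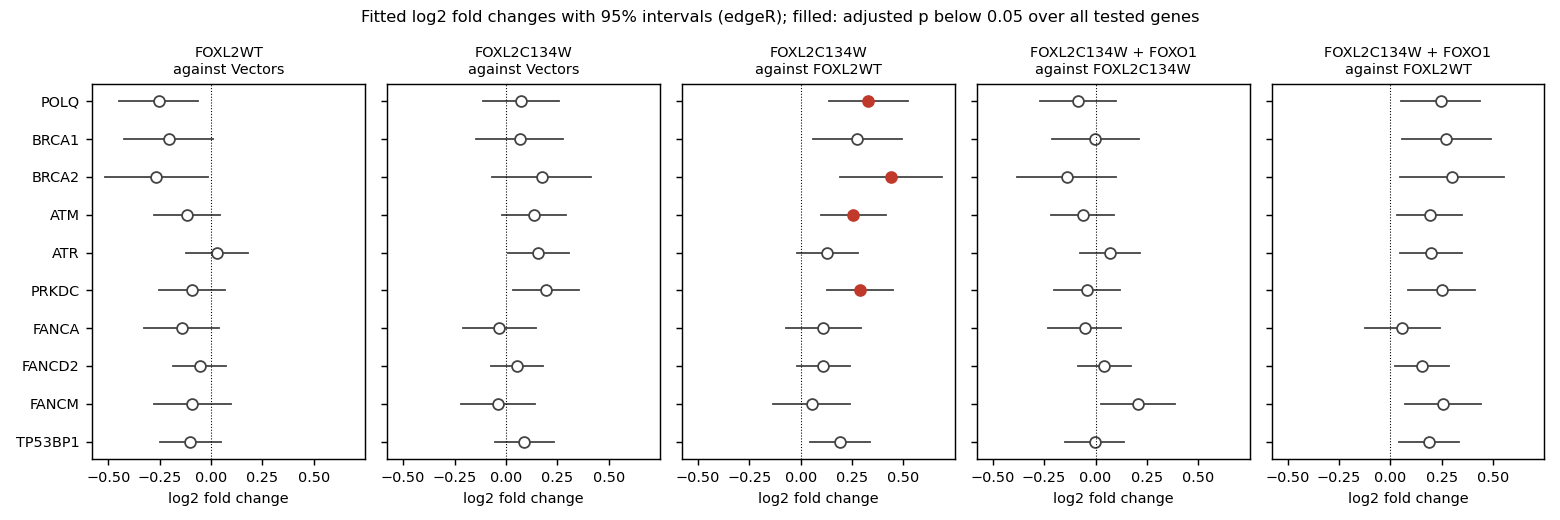
Fitted log2 fold changes (points) with 95% intervals (lines) of the 10 genes in 5 comparisons; filled points passed an adjusted p of 0.05 over all tested genes. The 4 filled points, POLQ, BRCA2, ATM and PRKDC, all belong to FOXL2C134W against FOXL2WT.

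Calls also followed the length of the transcripts. The 4 called genes were the 4 longest of the 10, with weighted lengths of 8.71 kb for POLQ, 11.8 kb for BRCA2, 12.1 kb for ATM and 13.2 kb for PRKDC, and the other 6 lay between 3.68 kb (FANCA) and 7.99 kb (ATR). Across all genes tested, 0.942% of those under 2000 bases were called higher in FOXL2C134W than in FOXL2WT, and the share was 4.05% from 2000 to 4000 bases, 12.2% up to 6000, 23.9% up to 8000 and 36.1% of the 581 genes of 8000 bases or more. These 581 genes had a median log2 fold change of 0.20, compared with 0.25 to 0.44 for the 4 members among them. In the bin from 6000 to 8000 bases the median was 0.12, and the members BRCA1, ATR, FANCM and TP53BP1 had 0.05 to 0.27.

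The share of all counts in genes of 8000 bases or more was 3.28% to 3.43% in FOXL2WT, 3.60% in FOXL2C134W A and 4.27% and 4.11% in FOXL2C134W B and C. It was 3.42% to 3.64% in Vectors and lowest, at 3.24%, in FOXL2WT + FOXO1 A. FOXL2C134W A within its group and FOXL2WT + FOXO1 A over all libraries were thus low both in the repair genes and in long genes as a class. In a fit with an offset for gene length, edgeR called 0 of the 10 members, and 0 with the offset and the replicate block, although 795 genes were still called higher and 690 lower with the offset, compared with 989 and 571 without it. With the offset, BRCA2 had a log2 fold change of 0.18 (adjusted p = 0.17), POLQ 0.15 (adjusted p = 0.20), PRKDC 0.01 (adjusted p = 0.90) and ATM -0.0023 (adjusted p = 0.98), and the median of the 10 was 0.046.

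**Figure D3:**
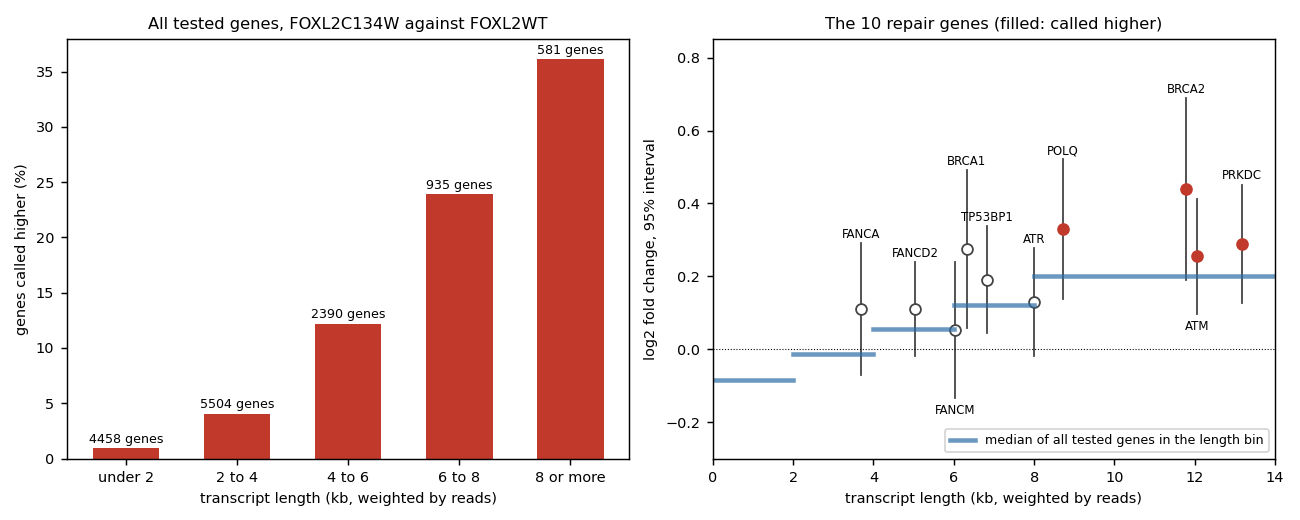
Left, percentage of tested genes called higher in FOXL2C134W than in FOXL2WT by transcript length in kb; right, log2 fold changes with 95% intervals of the 10 genes against their length, with horizontal lines for the median of all tested genes in each length bin. The share called rises from 0.942% to 36.1%, and the 4 filled points are the 4 longest genes.

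The levels in FOXL2WT were also set against Vectors. FOXL2WT carries SMAD3 as well as FOXL2, and no condition had SMAD3 alone, so their parts cannot be told apart. None of the 10 was called by edgeR (842 genes, or 6.07% of those tested, were) and none by DESeq2, while 2 had an unadjusted p under 0.05, as had 20.8% of all genes. These were POLQ, with a log2 fold change of -0.25 (95% interval -0.45 to -0.06, adjusted p = 0.11), and BRCA2 with -0.27 (-0.52 to -0.01, adjusted p = 0.21). BRCA1 had a log2 fold change of -0.21 (adjusted p = 0.27), FANCA of -0.14, ATM of -0.12, TP53BP1 of -0.10, PRKDC of -0.09, FANCM of -0.09 and FANCD2 of -0.06, and only ATR was above 0 with 0.03. The replicates of 5 genes (POLQ, BRCA1, BRCA2, FANCM and TP53BP1) lay wholly below those of Vectors, as did those of 15.9% of all genes. The median of the 10 was -0.11, and that of all genes 0.0025. Long genes as a class were also lower here. Genes of 8000 bases or more had a median of -0.071, with 6.71% called lower. Those from 6000 to 8000 bases had -0.046 and 5.88%, and each of these bins holds 4 members.

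FOXL2C134W and Vectors were closer for POLQ. Its log2 fold change was 0.07 (95% interval -0.11 to 0.26, adjusted p = 0.65). Here edgeR called 0 of the 10 genes, against 14.7% of all genes, and DESeq2 called 0. Of the genes of 8000 bases or more 25.1% were called higher, with a median log2 fold change of 0.15, and 0 of the 4 members among them were called. PRKDC (0.20, adjusted p = 0.097) and ATR (0.16, adjusted p = 0.15) had an unadjusted p under 0.05, as had 27.6% of all genes. BRCA2 had a log2 fold change of 0.17 (-0.07 to 0.42) and ATM of 0.14 (-0.02 to 0.29). In FOXL2C134W + FOXO1 against Vectors 1 of the 10 was called, ATR with 0.23 (0.08 to 0.37, adjusted p = 0.049), where 9.33% of all genes were.

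FOXO1 left the repair genes without a called change in either background. In FOXL2WT + FOXO1 against FOXL2WT, 0 of the 10 were called by edgeR and by DESeq2 and 0 had an unadjusted p under 0.05, with 0.0505% of all genes called. The member with the largest value was BRCA2 with a log2 fold change of 0.17 (-0.09 to 0.42), and POLQ had 0.15 (-0.05 to 0.34). In FOXL2C134W + FOXO1 against FOXL2C134W, again 0 were called by either tool (0.714% of all genes), and 1 had an unadjusted p under 0.05 (11.2% of all genes), FANCM with 0.20 (0.02 to 0.39, adjusted p = 0.36). POLQ had a log2 fold change of -0.08 (-0.27 to 0.10) and BRCA2 of -0.14 (-0.38 to 0.10). The effect of FOXO1 in FOXL2C134W minus its effect in FOXL2WT was called for 0 of the 10 genes by edgeR and by DESeq2, with 0 at an unadjusted p under 0.05, and for 1.38% of all genes. That difference was -0.31 (-0.66 to 0.05) for BRCA2 and -0.23 (-0.50 to 0.04) for POLQ.

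When FOXL2C134W + FOXO1 was compared with FOXL2WT, all 10 fold changes were above 0 and the replicates of 9 genes, all but FANCA, lay wholly above those of FOXL2WT, compared with 12.1% of all genes. In this comparison edgeR called 0 of the 10 and 1.69% of all genes, DESeq2 called 1, and 9 members had an unadjusted p under 0.05, as had 18.5% of all genes. The log2 fold change was 0.30 (0.05 to 0.55, adjusted p = 0.19) for BRCA2, 0.25 (0.09 to 0.41, adjusted p = 0.096) for PRKDC and 0.24 (0.05 to 0.44, adjusted p = 0.16) for POLQ. The median of the 10 was 0.22, the value also found for FOXL2C134W against the same FOXL2WT libraries, which both comparisons share. All genes of 8000 bases or more had a median of 0.11, and those from 6000 to 8000 bases of 0.081. A fit of these 2 groups alone called 5 of the 10, but its share over all genes is not given here, so that count has no baseline. Between the conditions that both received FOXO1, edgeR and DESeq2 called 0 of the 10 (0.144% of all genes) and 4 had an unadjusted p under 0.05, as had 13.5% of all genes. The largest value was that of PRKDC, 0.21 (0.05 to 0.37, adjusted p = 0.26), and POLQ had 0.10 (-0.09 to 0.29).

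The wider repair machinery was read from 7 lists with 160 genes that exclude the 10 members, of which 158 were tested. In FOXL2C134W against FOXL2WT, 12 of the 158 were higher (7.59%, close to the 7.13% of all genes) and 3 lower (1.90%, all genes 4.12%), and their median log2 fold change was 0.014. MDC1, the scaffold that binds phosphorylated histone H2AX at breaks, was the highest with 1.60-fold (0.68 ± 0.11 on the log2 scale, adjusted p = 0.00073). Its level was 26.5 ± 1.45 CPM (SD, n = 3) in FOXL2WT and 42.5 ± 7.42 in FOXL2C134W. The checkpoint mediator CLSPN rose by 0.46 ± 0.10 (adjusted p = 0.0048), REV3L, the catalytic subunit of polymerase zeta, by 0.45 ± 0.10 (adjusted p = 0.0078), and SLX4, the nuclease scaffold, by 0.45 ± 0.10 (adjusted p = 0.0075). RAD50 of the MRN complex rose by 0.38 ± 0.10 (adjusted p = 0.014).

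By list, break signalling and checkpoint had 4 of 35 genes higher and homologous recombination 3 of 34 higher and 1 lower. Of the end joining list 2 of 18 were higher, PARP1 (0.23) and LIG1 (0.22), and of translesion synthesis and repair polymerases 3 of 19, among them POLH (0.36) and POLE (0.24). These 4 genes were named after their values were seen. The Fanconi anemia list (19 genes) and mismatch repair (7 genes) had none called. Of the lists for nucleotide and base excision repair, 2 of 26 were lower, ERCC8 (-0.22, adjusted p = 0.042) and TDG (-0.16, adjusted p = 0.029). The single-strand binding subunit RPA2 was also lower (-0.14, adjusted p = 0.043). With the length offset 9 of the 158 were higher and 3 lower.

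**Figure D4:**
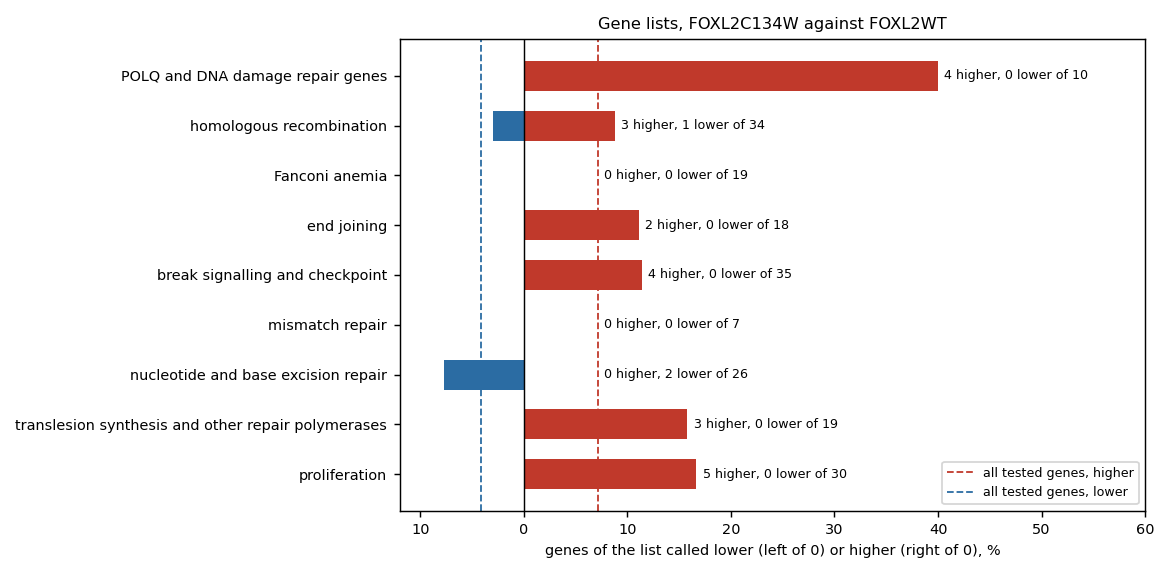
Percentage of each list called higher (right of 0) or lower (left of 0) in FOXL2C134W against FOXL2WT, with counts beside the bars; dashed lines give the percentages over all tested genes, 7.13% higher and 4.12% lower. The 10 repair genes stand at 4 of 10, and the highest share among the other repair lists is 3 of 19. All lists were chosen with earlier results of these data known.

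In FOXL2WT against Vectors, 3 (1.90%) of the 158 genes were higher and 2 (1.27%) lower, with 2.46% of all genes called higher and 3.61% lower. The 3 were FANCC (0.20), FANCE (0.32), both of the Fanconi core complex, and the helicase gene ERCC2 (0.29), and the 2 were LIG1 (-0.22) and CLSPN (-0.36), all named after their values were seen. FOXO1 changed 0 of the 158 in FOXL2WT by edgeR and by DESeq2, with 10 (6.33%) at an unadjusted p under 0.05 against 9.13% of all genes. In FOXL2C134W edgeR again called 0, with 12 (7.59%) at an unadjusted p under 0.05 against 11.2% of all genes, and DESeq2 called 1 higher and 1 lower.

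Many repair genes are expressed in cycling cells, so proliferation genes were read beside them. In FOXL2C134W against FOXL2WT 5 of 30 were higher and 0 lower, with a list median of 0.0038. MKI67, the proliferation antigen, rose 2.97-fold (1.57 ± 0.16 on the log2 scale, adjusted p = 1.3e-05), from 18.5 ± 0.92 to 54.8 ± 13.0 CPM (SD, n = 3), the centromere protein gene CENPF rose 1.97-fold (0.97 ± 0.19, adjusted p = 0.0025) and TOP2A 1.18-fold (0.24 ± 0.07, adjusted p = 0.040). The transcripts of MKI67 and CENPF both exceed 8000 bases. In FOXL2WT against Vectors 9 of the 30 were lower and 0 higher, compared with 3.61% and 2.46% of all genes. In FOXL2C134W against Vectors 8 were lower and 1 higher, compared with 7.24% and 7.48% of all genes. The list median was -0.070 and -0.050 in these comparisons, which share the Vectors libraries, and the part of the proliferation genes in the levels of the repair genes was not tested.

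The genes most like POLQ over the 15 libraries, by Pearson's r of log2-CPM, were EEA1 (r = 0.94), MAPKBP1 (0.94), ASPM (0.92), ANKRD12 (0.92) and MPHOSPH8 (0.92). Transcripts of EEA1, ASPM and ANKRD12 also exceed 8000 bases. Among the members, TP53BP1 (r = 0.86, rank 88 of 13867 genes), BRCA2 (0.84, rank 153) and BRCA1 (0.82, rank 208) were the most like POLQ, and FANCA the least (0.44). These r values describe libraries that share conditions and depth.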

How the data were processed

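RNA was measured in 15 libraries of HGrC1 cells, 3 in each of 5 conditions taken from the labels. The authors estimated transcripts with salmon 1.1.0 from 75-bp single-end reads on hg38 and deposited estimated counts, rounded and summed to 37787 genes, without normalization. The deposited TPM values (transcript abundances scaled by salmon to a fixed total per library) were used to weight transcript lengths and GC content, and those of ATM-220 are quoted in the closing section. The members and all gene lists were chosen with earlier results of these data known.

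All libraries were fitted together in R 4.3.3 with edgeR 4.0.16 (filterByExpr, TMM, quasi-likelihood test), and p-values were adjusted by Benjamini-Hochberg over 13868 genes with a threshold of 0.05. SE and 95% intervals come from this fit. CPM values are scaled by TMM, and log2-CPM has a prior count of 2. On simulated counts the script was tested with known fold changes. DESeq2 1.42.0 and the other settings given in the closing section were alternatives, among them offsets for gene length and GC content by lowess (span 0.3). Gene length is that of the transcripts, weighted by estimated reads. GC content and positions come from GENCODE 44, joined by identifier, which may not be the release used upstream. Length bins were chosen after seeing the data. Genes named beside the members are, from the 7 repair lists, the 5 highest and 5 lowest called in FOXL2C134W against FOXL2WT and the 3 highest and 3 lowest called with FOXO1 in FOXL2C134W, with a mean of at least 1 CPM, the 3 highest and 3 lowest called proliferation genes, and the 5 genes with the highest r to POLQ, except where stated. Figures were drawn with matplotlib 3.10.9.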

Additional observations from a re-analysis of the deposited data

Results flagged for a closer look

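MDC1 and MKI67, which are not among the 10 members, were 2 of the 192 genes for which the effect of FOXO1 differed between the FOXL2 forms, by the test of the difference itself in edgeR. FOXM1 of the proliferation list, named after its value was seen, was also called (-0.29, adjusted p = 0.041). Mean FOXO1 mRNA was 117 CPM in FOXL2WT + FOXO1 and 43.2 in FOXL2C134W + FOXO1. The amount of FOXO1 and the FOXL2 form therefore cannot be told apart in these differences. For MDC1 the effect in FOXL2C134W minus that in FOXL2WT was -0.65 on the log2 scale (95% interval -0.98 to -0.32, adjusted p = 0.048), with a log2 fold change upon FOXO1 of -0.44 in FOXL2C134W and 0.21 in FOXL2WT, neither of which passed the test on its own (adjusted p = 0.064 and 0.61). This call was lost in 11 of the 15 fits that left out 1 library and held in the fit with the gene length offset (-0.57, adjusted p = 0.023). For MKI67 the difference was -1.39 (-1.87 to -0.91, adjusted p = 0.0067), with -0.77 in FOXL2C134W (adjusted p = 0.022) and 0.62 in FOXL2WT (adjusted p = 0.25). It passed the test in all 15 fits that left out 1 library. For POLQ and the other 9 members 0 such differences were called by edgeR or DESeq2, and 0 had an unadjusted p under 0.05.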

How the results depend on the processing

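The count of 4 members called in FOXL2C134W against FOXL2WT stayed within 1.5 times (3 to 6) with DESeq2, its size factors, both count filters, a fit of the groups compared, the replicate block (4) and the GC content offset. The count of members was 1 in DESeq2 with transcript length offsets, 0 with the gene length offset and 0 with the replicate block and that offset. It was 0 to 6 when leaving out 1 library. Of the settings tried, DESeq2 with transcript length offsets is the closest to the processing that the study describes. There 716 genes were called, 487 of them higher (2.14%). The 1 member was POLQ (0.47, adjusted p = 0.011), while BRCA2 (adjusted p = 0.87), PRKDC (0.46) and ATM (0.21) were not called. For FOXL2WT against Vectors, where 0 were called, 1 was called in DESeq2 with transcript length offsets, 3 with the filter of at least 1 count in any library and 3 in a fit of the groups compared, and 0 to 1 without 1 library. For FOXL2C134W against Vectors 1 was called with that filter, 1 with the replicate block and 1 with the GC content offset, and 0 to 3 without 1 library. For FOXL2C134W + FOXO1 against FOXL2WT 1 was called in DESeq2, 1 with the replicate block, 1 with the GC content offset, 8 with the filter of at least 1 count in any library and 5 in a fit of the groups compared, and 0 to 2 without 1 library. The same loose filter called 1 between the conditions with FOXO1 and 1 pair of neighbours in the order of levels. Shares over all genes in these settings are not given here for comparisons other than FOXL2C134W against FOXL2WT. Leaving out 1 library gave 0 to 1 for FOXO1 in FOXL2C134W, for the interaction and for the neighbours. Over the 5 conditions, where 1 was called, the counts were 5 in DESeq2, 2 in DESeq2 with transcript length offsets, 8 and 2 with the looser and the stricter filter, 3 with the replicate block, 0 with the gene length offset, 0 with the replicate block and that offset and 5 with the GC content offset, and 0 to 7 without 1 library.

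The correlations showed no general pairing of samples by replicate letter, but with so few libraries per condition they cannot exclude it. Deviations from the group means had a median correlation of 0.0036 over 30 pairs with the same letter and 0.0058 over 60 pairs with different letters, and the replicate block changed the total called in FOXL2C134W against FOXL2WT from 1560 to 1562 genes. The highest correlation, 0.166, was that of FOXL2C134W A with FOXL2WT + FOXO1 A. With the block, the SE in that comparison fell from 0.077 to 0.059 for PRKDC and from 0.119 to 0.095 for BRCA2. It rose slightly for FANCA and FANCD2 and fell for the other members.

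Directions turned mostly in 2 settings. In DESeq2 with transcript length offsets, the log2 fold change in FOXL2C134W against FOXL2WT was -0.18 for BRCA2, -1.02 for ATM and -0.0085 for FANCD2. In FOXL2WT against Vectors it was 0.069 for BRCA2 and 1.39 for ATM, in FOXL2C134W against Vectors -0.088 for POLQ and -0.11 for BRCA2, in FOXL2WT + FOXO1 against FOXL2WT -0.12 for BRCA2, in FOXL2C134W + FOXO1 against FOXL2WT -0.56 for BRCA2, between the conditions with FOXO1 -0.073 for POLQ, and in the interaction 0.048 for MDC1. The lengths used there are weighted by TPM, and that of ATM ran from 1168 to 7987 bases between libraries, because short transcripts took a large part of its TPM in some of them (ATM-220, of 234 bases, had 37.7 TPM in FOXL2WT A and 0 in FOXL2WT B and C). With the gene length offset, alone and with the replicate block, the values in FOXL2C134W against FOXL2WT were -0.0023 and -0.0030 for ATM, -0.032 and -0.031 for ATR and -0.058 and -0.055 for FANCM. In FOXL2C134W against Vectors they were -0.042 and -0.041 for POLQ, -0.00086 and -0.0056 for BRCA2 and -0.035 and -0.036 for ATM. POLQ between the conditions with FOXO1 ranged from -0.016 (without FOXL2WT + FOXO1 A) to 0.19 without 1 library. In the other alternatives tried the named values kept their sign. The lowest count of the 10 genes in a library was 272, and how far depth or the spread between libraries limited each call was not tested.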
